A study of Mus musculus with 2 samples.

Results

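The transcripts described here are those of the E2F family and of the RB-like pocket proteins, 10 genes chosen by symbol (E2f1 to E2f8, Rbl1 and Rbl2), all of which were present among the 24091 genes of the count table. They were measured by RNA-seq of total RNA from mouse splenic γδ T cells, T lymphocytes whose antigen receptor is built from a γ and a δ chain, in 1 library labelled freshly isolated and 1 library labelled IL-2 expanded. The expansion used plate-bound anti-CD3, soluble anti-CD28 and interleukin 2 (IL-2) at 100 U/ml, with 5 days of IL-2 culture. The protocol text is the same for both libraries, so that the freshly isolated cells were taken as uncultured from their label, and the parts played by receptor stimulation, culture and IL-2 cannot be told apart. Neither strain, age, genotype nor the number of animals pooled was given in the sources used here.

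E2F proteins are transcription factors that control entry into S phase. In resting cells the pocket proteins (Rb1, Rbl1 and Rbl2, also called pRB, p107 and p130) hold E2Fs in repressing complexes, and phosphorylation by cyclin-dependent kinases releases them. E2f1, E2f2 and E2f3 are classed as activators, E2f4 and E2f5 as repressors that need a pocket protein, E2f6 as a repressor that works with Polycomb proteins, and E2f7 and E2f8 as atypical repressors that bind DNA without a dimer partner. In T cells this switch separates the quiescent state from clonal expansion. The comparison asked how the activator and the repressor sides of the family differed between the libraries.

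Counts summed to 20379385 in the library of freshly isolated cells and to 22204099 in that of expanded cells. Levels are counts per 1000000 of the scaled library size (CPM), and 1 count equalled 0.0465 CPM in the freshly isolated and 0.0476 CPM in the expanded library. Each group has 1 library, so the spread between samples is unknown and no difference could be tested. "Before" and "after expansion" refer to the freshly isolated and the expanded library, which are separate samples. Intervals are exact at the 95% level and take in counting error alone, and a gene was counted as higher or lower from 2-fold, on log2 folds with a prior count of 2. The CD3 chain genes, which define T cells, were present in both libraries, with a summed level of 2231 CPM before and 2094 CPM after expansion. They mark T cells of any receptor type, and the receptor constant genes that separate γδ from αβ T cells were not analysed here. Markers of other spleen cells stood apart: all 11 macrophage markers, all 6 B and plasma cell markers tested and all 6 erythroid markers tested were at least 2-fold lower in the expanded library. The summed level went from 978 to 0.190 CPM for the macrophage list, from 911 to 3.71 CPM for the 7 B cell markers and from 93.6 to 0.999 CPM for the 9 erythroid markers in the table. In the expanded library 8 of the 11 macrophage markers (among them C1qa, C1qb, C1qc and Lyz2), 4 of the 7 B cell markers (among them Cd79a and Ms4a1) and 5 of the 9 erythroid markers (among them Hbb-bs) had 0 counts. Of 8 immediate early genes, which cell isolation can induce, 7 were at least 2-fold lower there, with a summed level of 15610 CPM in the freshly isolated and 663 CPM in the expanded library. The part of these other cells and of isolation in the values below was not tested.

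Promoter sequence of 4 members is shown first because it places the E2F-type letters that the family recognises beside genes of the family itself. RefSeq windows on build GRCm38.p6, from 250 bases before to 50 bases after a start of transcription, were matched by symbol for 8 of the 10 members, and for E2f4 and E2f5 none was matched. Capitals mark E2F-type motifs (TTCCCGC and TTGGCGC as well as the forms TTCGCGC and also TTGCCGC, on either strand) and motifs of the cell cycle genes homology region, abbreviated CHR (TTTGAA or TTCGAA on either strand), through which the MuvB complexes bind. The stretches lie at chr10:110745204-110745359 on the plus strand for E2f7, chr7:48881597-48881721 on the minus strand for E2f8, chr13:29986064-29986123 on the minus strand for E2f3 and chr2:157204535-157204594 on the minus strand for Rbl1, and each is written 5′ to 3′ in the direction of its gene.
E2f7: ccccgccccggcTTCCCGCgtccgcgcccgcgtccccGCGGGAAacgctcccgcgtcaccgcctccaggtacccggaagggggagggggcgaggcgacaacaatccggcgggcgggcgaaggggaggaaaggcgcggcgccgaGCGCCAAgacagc
E2f8: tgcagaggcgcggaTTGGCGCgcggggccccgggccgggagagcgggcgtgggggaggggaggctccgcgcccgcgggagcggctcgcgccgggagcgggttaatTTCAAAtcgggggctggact
E2f3: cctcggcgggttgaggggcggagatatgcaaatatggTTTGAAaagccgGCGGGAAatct
Rbl1: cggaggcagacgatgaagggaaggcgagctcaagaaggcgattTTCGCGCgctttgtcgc

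Counted from the start of transcription, the E2f7 stretch held 3 E2F-type matches, beginning at -223, -198 and -92. The E2f8 stretch held 1 E2F-type match at -111 and 1 CHR match at -20. The E2f3 stretch held a CHR match at -23 and an E2F-type match at -11. E2f3 had a further E2F-type match after its start, at position 19. The window of another E2f3 start, 1672 bases inside the gene, held none of the motifs. Rbl1 had 1 E2F-type match at -17. E2f2 had an E2F-type match after its start, at position 41, in the transcribed part, and the window of a further start 8508 bases inside the gene held a CHR match at -31. The E2f6 window held none of the motifs and the Rbl2 window only a CHR match at -201. The E2f1 window of the RefSeq table belongs to a start 466 bases inside the deposited gene span and held none of the motifs, so the region before the outer E2f1 start was not analysed here. An E2F-type match was present for 5 of the 8 members with a window, against 10.9% of all 27025 genes with a window (9.57% of the 32851 windows). A CHR match was present for 4 of the 8, against 21.7% of genes (19.2% of windows). CCAAT boxes, searched as CCAAT on both strands, were present for 4 of the 8, against 41.06% of genes (37.4% of windows), and the CCAAT box of E2f8 overlaps its E2F-type match. Of the genes with a window, 9194 reached a mean of 1 CPM over both libraries. Of those, 1803 held an E2F-type and 1520 a CHR motif. A match describes letters in a window and is not evidence of binding.

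**Figure D1:**
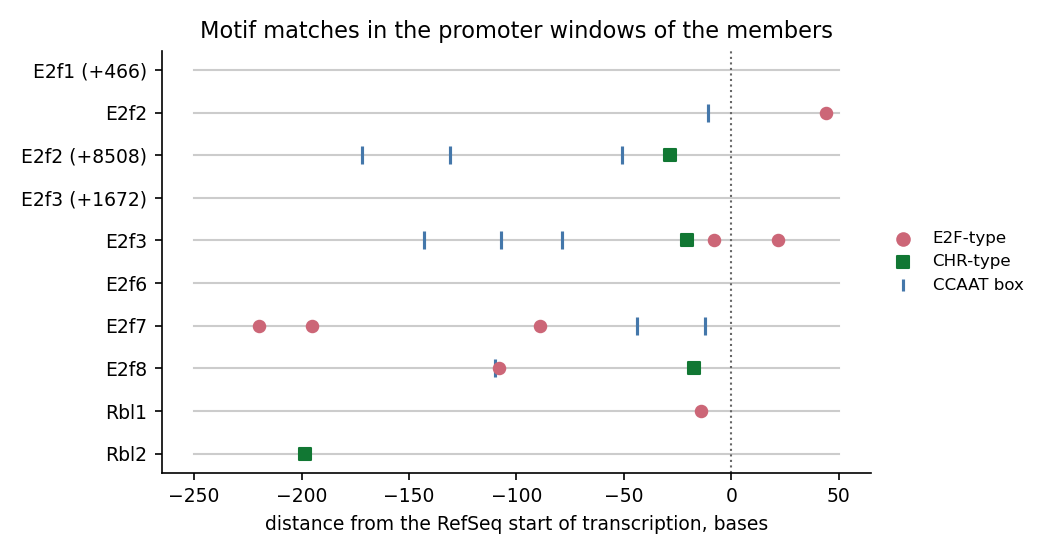
Position of each motif match (symbols) in the promoter windows of 8 members, in bases from the RefSeq start of transcription (dotted line). A number in brackets is the distance of that start from the deposited gene start. E2f7 has 3 E2F-type matches, and the rows of E2f6, E2f1 (+466) and E2f3 (+1672) are empty.

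Of the 10 members, 7 were higher by 2-fold or more after expansion, as were 22.4% of the 11715 genes tested (those whose mean over both libraries reached 1 CPM). In such bulk libraries a different number of cells that hold a transcript and a different amount of it per cell cannot be told apart. None of the members was at least 2-fold lower, while 25.0% of all tested genes were. The 3 members E2f1, E2f7 and E2f8 were at least 10-fold higher, against 4.41% of all tested genes. The median log2 fold was 1.15 over the members and 0.04 over all tested genes. All 10 passed the filter on low counts, although E2f7 was under 1 CPM in the freshly isolated library.

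**Figure D2:**
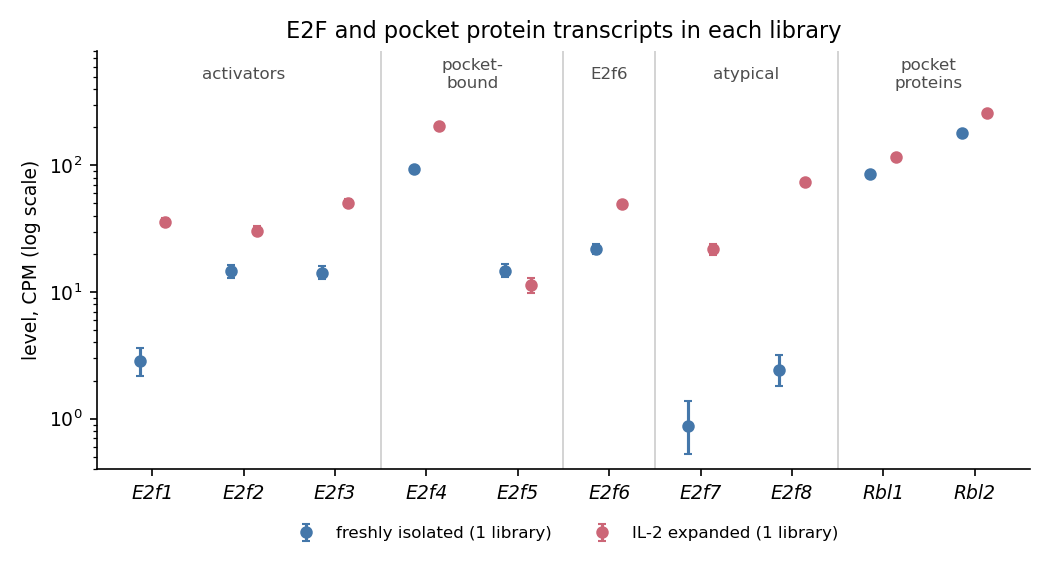
Level of each member in CPM (log scale) in the freshly isolated (blue) and the expanded library (red), with exact 95% Poisson intervals for counting error. E2f5 sits lower in the expanded library, and the other 9 genes sit higher.

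The 3 activator genes were all higher by 2-fold or more after expansion, to very different extents. E2f1 (chromosome 2, 154559400 to 154569892, minus strand, build GRCm38), the founding member of the family, had 61 counts (2.83 CPM) before and 744 counts (35.4 CPM) after expansion. It was 12.5-fold higher (interval 9.61 to 16.5), and 3.83% of all tested genes had a log2 fold at least as high. E2f3 (chromosome 13, 29906575 to 29986063) had 306 counts (14.2 CPM) before and 1067 counts (50.8 CPM) after expansion, 3.57-fold higher (3.14 to 4.07). The gene gives rise to a longer activating and a shorter isoform from separate promoters, which a count per gene joins. E2f2 (chromosome 4, 136172274 to 136196056) had 313 counts (14.5 CPM) and 641 counts (30.5 CPM), which is 2.10-fold higher (1.83 to 2.41). That interval takes in 2-fold, and 21.0% of tested genes had a log2 fold at least as high. E2f2 thus had a fold that many genes reached, while few reached that of E2f1.

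Per kilobase of gene length E2f1 was the activator with the lowest level in freshly isolated cells (0.917 CPM per kb) and the one with the highest in expanded cells (11.5 CPM per kb). Of the counts of E2f1, E2f2 and E2f3 together, E2f1 took 8.97% (interval 6.93 to 11.4) of 680 in the freshly isolated and 30.3% (28.5 to 32.2) of 2452 in the expanded library. Divided by the deposited gene lengths, the share of E2f1 was 14.1% and 42.4%. The intervals of the shares do not overlap, so the difference is larger than counting error.

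The 2 atypical repressors were the members furthest apart between the libraries. E2f8 (chromosome 7, 48866429 to 48881596) had 52 counts (2.42 CPM) before and 1542 counts (73.4 CPM) after expansion. It was 30.4-fold higher (interval 23.03 to 40.8), and 199 of the 11715 tested genes (1.70%) had a log2 fold at least as high. E2f7 (chromosome 10, 110745465 to 110787384) had 19 counts (0.883 CPM) and 456 counts (21.7 CPM), 24.6-fold higher (15.6 to 41.2). The intervals of E2f7 and E2f8 overlap, and E2f8 took 73.2% (61.4 to 83.1) of their joint counts in the freshly isolated and 77.2% (75.3 to 79.0) in the expanded library. Their ratio to each other therefore did not differ beyond counting error (1.24-fold, interval 0.682 to 2.15). As background, both proteins repress transcription of E2f1 itself in cycling cells.

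Exons of E2f8 share 610 bases (11.2% of its exon bases) with an annotated gene on the opposite strand, Gm2788, and E2f7 shares 86 bases (0.955%) with 1700020G17Rik. The use of strand in counting was not given in the sources used here, so reads from these stretches could not be assigned to a strand.

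E2f4, E2f5 and E2f6, the repressors that bind DNA with a dimer partner, went different ways. E2f4 (chromosome 8, 105297663 to 105305370), the main E2F of resting cells, had 2008 counts (93.3 CPM) before and 4305 counts (205 CPM) after expansion, 2.19-fold higher (interval 2.08 to 2.32). E2f5 (chromosome 3, 14578671 to 14606309), its closest relative, had 318 counts (14.8 CPM) and 237 counts (11.3 CPM). E2f5 was the member with a lower level in the expanded library, 1.31-fold lower (1.10 to 1.56), which is under the 2-fold limit. The ratio of E2f4 to E2f5 counts was 2.88-fold higher in the expanded library (2.40 to 3.45), a value that does not depend on how the libraries are scaled. E2f6 (chromosome 12, 16810965 to 16826752), which binds no pocket protein, had 468 counts (21.7 CPM) and 1030 counts (49.0 CPM), which is 2.25-fold higher (2.02 to 2.52).

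The calls of E2f4 and E2f2 depend on the scaling. With libraries scaled by total count, which moves the median log2 fold of all tested genes by -0.16, the log2 fold was 0.98 for E2f4 and 0.91 for E2f2, just under 2-fold, and 5 of the 10 members were counted as higher, where 19.1% of tested genes were.

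**Figure D3:**
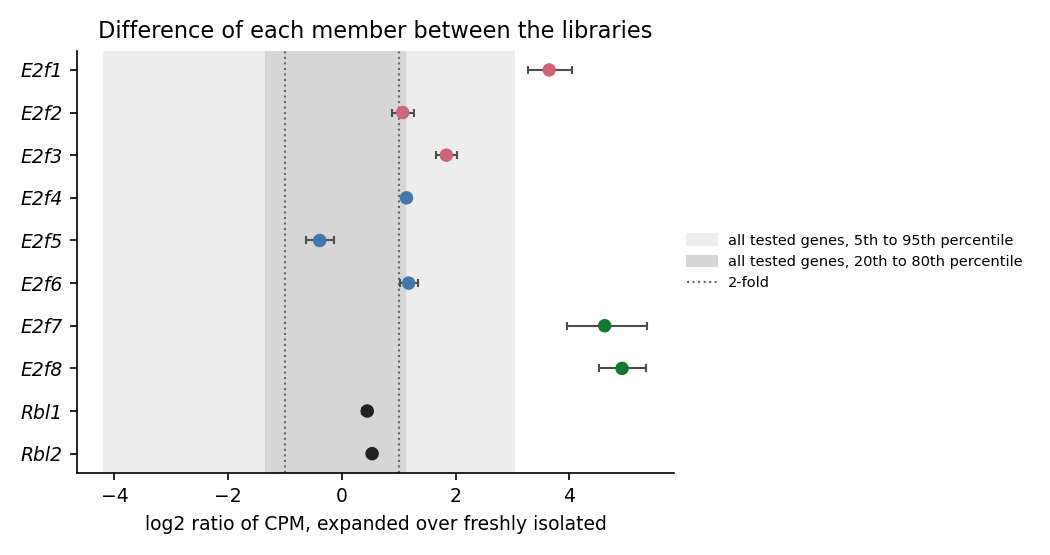
Log2 ratio of CPM, expanded over freshly isolated, for each member (points: red activators, blue E2f4 to E2f6, green atypical, black pocket proteins) with exact 95% counting intervals. Grey bands hold the central part of all tested genes, and E2f1, E2f7 and E2f8 lie above the band that ends at the 95th percentile.

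The pocket protein genes were higher by less than 2-fold. Rbl2 (chromosome 8, 91070057 to 91123844), whose product p130 is the main pocket protein of quiescent cells, had 3859 counts (179 CPM) before and 5443 counts (259 CPM) after expansion, a ratio of 1.44 (interval 1.39 to 1.51). Rbl1 (chromosome 2, 157145894 to 157204534), whose product p107 is linked to cycling cells, had 1833 counts (85.2 CPM) and 2436 counts (116 CPM), a ratio of 1.36 (1.28 to 1.45). Rbl1 took 32.2% (31.0 to 33.4) of the counts of both genes in the freshly isolated and 30.9% (29.9 to 32.0) in the expanded library. The ratio of Rbl1 to Rbl2 in expanded over freshly isolated cells was 0.942 with an interval from 0.875 to 1.02, so a difference in their balance was not detectable at this depth. Rb1, the third pocket protein gene, stood at 77.4 and 100.1 CPM, a ratio of 1.29 (1.21 to 1.38). Exons of Rbl2 share 693 bases (9.17%) with Aktip and 892 bases (11.8%) with Gm45464, both on the opposite strand. The marker sums of macrophages (978 and 0.190 CPM), B cells (911 and 3.71 CPM) and erythroid cells (93.6 and 0.999 CPM) differed in the same comparison, and their part in the pocket protein values was not tested.

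Summed over all of E2f1 to E2f8, the ratio of activator to repressor counts within a library was higher in expanded cells. The ratio of the atypical repressors to the activators was higher there as well. E2f1, E2f2 and E2f3 held 680 of 3545 E2F counts in the freshly isolated library (19.2%, interval 17.9 to 20.5) and 2452 of 10022 in the expanded library (24.5%, 23.6 to 25.3). The activator to repressor ratio was 1.36-fold higher in the expanded library (1.24 to 1.50). With counts divided by gene length the shares were 9.50% and 15.8%, and that ratio was 1.79-fold higher. E2f7 and E2f8 held 2.0% of E2F counts (1.57 to 2.52) in the freshly isolated and 19.9% (19.2 to 20.7) in the expanded library. The ratio of E2f7 and E2f8 to the 3 activators was 7.80-fold higher in the expanded library (6.06 to 10.2). E2f4 and E2f5 held 65.6% (64.02 to 67.2) and 45.3% (44.3 to 46.3) of E2F counts, a lower share in the expanded library although E2f4 itself stood at a higher level there. With E2f7 and E2f8 left out, the activator to repressor ratio was 1.81-fold higher, so the size of this difference depends on how the atypical members are grouped. The activators did not go together: E2f1 went from 1.72% to 7.42% of E2F counts and E2f3 from 8.63% to 10.65%, but E2f2 from 8.83% to 6.40%. E2f4 alone held 56.6% and 43.0%. E2f1 held 61 of the 680 activator counts before and 744 of the 2452 after expansion. E2f4 held 2008 of the 2865 repressor counts before and 4305 of the 7570 after expansion. The ratio without either gene was not computed. It is therefore given for the full sets only and is not shown to hold without E2f1 or without E2f4.

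**Figure D4:**
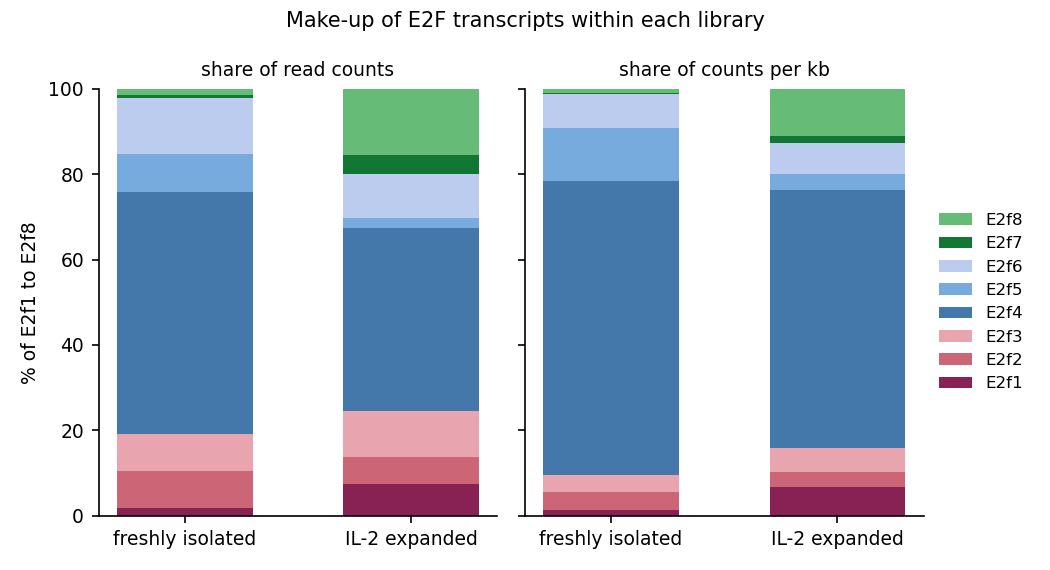
Share of each gene in the E2f1 to E2f8 total (y axis, %) in each library, from read counts (left) and from counts divided by gene length (right). E2f4 (dark blue) is the largest share in both libraries, and E2f7 and E2f8 (green) go from 2.0% to 19.9% of counts.

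The ratio of activator to pocket protein transcripts was higher in expanded cells. Summed per kilobase (CPM per kb of deposited gene length), the activators stood at 6.48 and the 3 pocket protein genes at 65.9 in freshly isolated cells, and at 27.04 and 91.3 in expanded cells. This per-kilobase ratio was 0.0985 and 0.296, and by counts it was 2.66-fold higher in the expanded library (interval 2.43 to 2.91). E2F transcripts together went from 164.7 to 477 CPM.

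On the per-kilobase scale E2f4 was the most abundant member in both libraries, at 47.04 CPM per kb in freshly isolated and 103 in expanded cells, followed by Rbl2 (33.9 and 49.02) and Rbl1 (15.1 and 20.5). In freshly isolated cells the order below them was E2f5 (8.49), E2f6 (5.52), E2f2 (2.91), E2f3 (2.66), E2f1 (0.917), E2f8 (0.625) and E2f7 (0.102). In expanded cells it was E2f8 (18.97), E2f6 (12.5), E2f1 (11.5), E2f3 (9.48), E2f5 (6.48), E2f2 (6.11) and E2f7 (2.51). Neighbours whose ratio did not differ from 1 beyond counting error were E2f2 and E2f3, and E2f1 and E2f8, in freshly isolated cells, and E2f6 and E2f1, and E2f5 and E2f2, in expanded cells. E2f8 thus moved from the ninth to the fourth place and E2f5 from the fourth to the eighth. Gene length was taken as deposited, and isoforms in use were not measured.

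The dimer partners of E2f1 to E2f6 are the DP proteins, and their genes went opposite ways. Tfdp1 had 481 counts (22.4 CPM) before and 3129 counts (149 CPM) after expansion, 6.66-fold higher (interval 6.05 to 7.35). Tfdp2 had 764 counts (35.5 CPM) and 253 counts (12.04 CPM), 2.95-fold lower (2.56 to 3.41). Tfdp1 took 38.6% (35.9 to 41.4) of their joint counts in the freshly isolated and 92.5% (91.6 to 93.4) in the expanded library, so that the gene with fewer counts in the first was the one with nearly all of them in the other.

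The MuvB core joins Rbl1 or Rbl2 and E2f4 in the repressing DREAM complex of resting cells, and joins B-MYB (Mybl2) and Foxm1 to activate mitotic genes in cycling cells. Of 9 genes of the core and its partners, 3 were at least 2-fold higher, 1 was lower and 5 lay between (median log2 fold 0.67), where 22.4% of all tested genes were higher and 25.0% lower. The higher genes were the partners of the activating form: Mybl2 (1.72 and 28.3 CPM, 16.5-fold, interval 11.8 to 23.6), Mybl1 (1.07 and 12.04 CPM) and Foxm1 (8.97 and 57.9 CPM). The lower gene was Dyrk1a, the kinase that promotes assembly of DREAM, at 252 and 110 CPM (2.29-fold lower, 2.19 to 2.41). The core genes lay within 2-fold, with Lin9 at 20.5 and 21.4 CPM, Lin37 at 23.97 and 19.7 CPM, Lin54 at 26.9 and 48.8 CPM and Rbbp4 at 247 and 392 CPM. Lin52 was close to the limit at 13.2 and 6.61 CPM.

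Of 10 genes of the Polycomb complex that holds E2f6, 1 was higher and 2 were lower (median log2 fold -0.11), counts near the 22.4% and 25.0% of all tested genes. Cbx3, a heterochromatin protein, stood at 9.34 and 32.2 CPM, and the ubiquitin ligase gene Rnf2 at 111 and 38.8 CPM. Ring1 was on the 2-fold line at 29.6 and 14.7 CPM.

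Kinases and inhibitors that act on pocket proteins were spread widely. Of 9 cyclin and kinase genes, 6 were higher and 1 was lower (median 1.71), where 22.4% of all tested genes were higher and 25.0% lower. Ccna2, the S phase cyclin that itself is an E2F target, stood at 4.32 and 299 CPM (69.3-fold, interval 56.5 to 86.03), and the cyclin E gene Ccne2 at 2.37 and 51.9 CPM (21.9-fold, 16.6 to 29.6). Cdk2, the kinase partner of both, stood at 37.2 and 38.8 CPM, and Ccnd3 at 156 and 307 CPM. The lower gene was Ccnd1, at 8.64 and 1.52 CPM, which is named here after its values were seen. Of 7 inhibitor genes, 4 were higher (57.1%) and 2 lower (28.6%, near the 25.0% of all tested genes). The median of the inhibitors was 1.71, and 3.30 with a filter at 5 CPM, which leaves out the low gene Cdkn1c. Cdkn1b, which encodes the quiescence inhibitor p27, stood at 419 and 53.3 CPM (7.86-fold lower, 7.39 to 8.38), while Cdkn1a, which encodes p21, stood at 21.9 and 647 CPM. Cdkn2b was at 0.929 and 83.6 CPM, and Cdkn2c at 9.38 and 31.02 CPM.

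Of 4 genes that control E2F protein stability or the ligases involved, 3 were higher and none lower, where 22.4% and 25.0% of all tested genes were. Ccnf, the F-box protein cyclin F that targets activator and atypical E2Fs, stood at 2.51 and 61.2 CPM (24.4-fold, interval 18.6 to 32.7), close to the fold of E2f7. Fbxo5, an inhibitor of the anaphase-promoting complex and an E2F target, stood at 7.20 and 54.04 CPM, and Fzr1, an activator of that complex, at 35.96 and 73.2 CPM. Skp2 stood at 7.25 and 13.7 CPM.

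Genes known as E2F targets at the G1/S boundary were higher in 33 of 40 cases and lower in none, where 22.4% and 25.0% of all tested genes were (median log2 fold 2.72). Rrm2, a ribonucleotide reductase subunit, stood at 12.2 and 463 CPM (38.04-fold, interval 33.6 to 43.2), and the replication factor Mcm10 at 1.81 and 70.9 CPM (39.1-fold, 28.5 to 55.2). At the other end, the licensing factor Cdt1 stood at 83.1 and 47.4 CPM, less than 2-fold apart. G2/M genes bound by DREAM and by the MuvB complex with B-MYB were higher in 25 of 28 cases and lower in none (median log2 fold 4.67). Cdk1 stood at 3.35 and 159.5 CPM (47.7-fold, 37.8 to 61.1) and the cyclin gene Ccnb1 at 0.976 and 45.3 CPM, while Cenpa (51.9 and 91.6 CPM) and Cdc25b (122 and 74.4 CPM) lay within 2-fold. The log2 folds of E2f7 (4.48) and E2f8 (4.87) were near the median of the G2/M genes, that of E2f1 (3.60) lay between the medians of both target lists, and those of E2f2 (1.06) and E2f3 (1.83) lay below both.

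**Figure D5:**
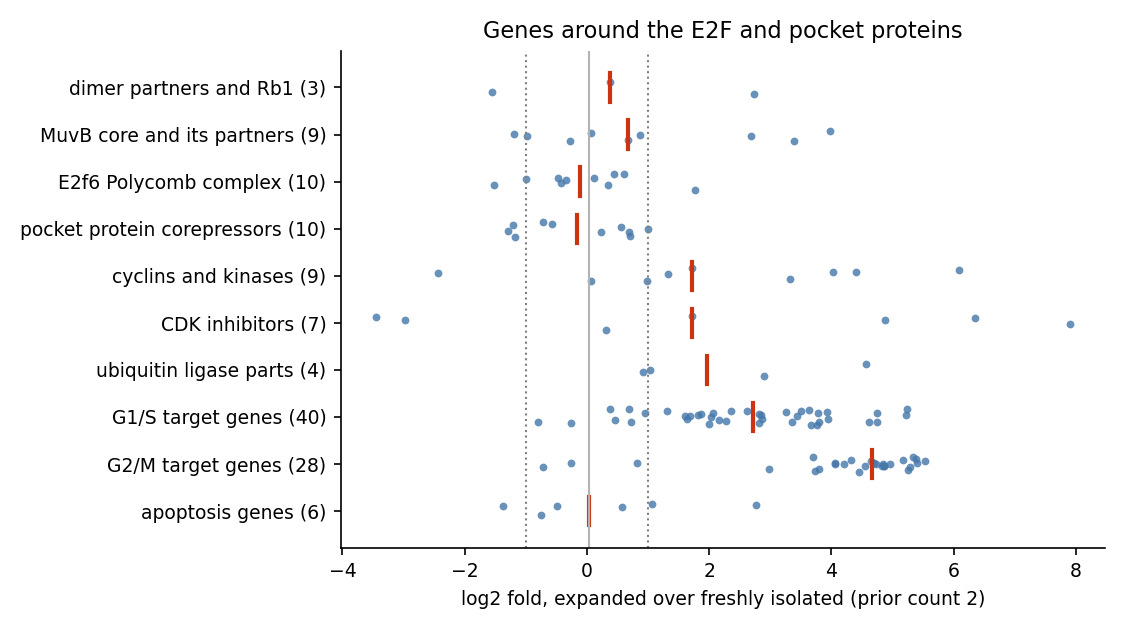
Log2 fold, expanded over freshly isolated, of each tested gene (points) in 10 lists of E2F pathway genes, with the list median (red bar), 2-fold limits (dotted) and the median of all tested genes (grey line). Numbers in brackets count the tested genes, and the G2/M list has the highest median (4.67).

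The promoter letters differed between the lists in the same windows. An E2F-type motif was present for 24 of 33 G1/S genes with a window (72.7%) and 3 of 24 G2/M genes (12.5%), against 10.9% of all genes with a window. A CHR motif was present for 5 of 33 G1/S genes (15.2%) and 18 of 24 G2/M genes (75.0%), against 21.7% of all genes. The shares of all genes take in genes that were not tested. Among the 9194 tested genes with a window, 1803 held an E2F-type and 1520 a CHR motif. E2f3 and E2f8 held both kinds in the same window, and E2f2 held them in the windows of separate starts. E2f7 held 3 of the E2F type and no CHR match, and Rbl2 held a CHR match only. Over all 9194 tested genes with a window, 26.1% of the 1803 genes with an E2F-type motif reached 2-fold higher levels after expansion, against 21.3% of the 7391 genes without one. This is a description across genes, which are not independent.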

How the data were processed

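The authors deposited raw read counts of each gene for both libraries, beside its span and its length in kilobases. The aligner STAR 2.6.0 and the counter HTSeq 0.6.0 are named in the submitters' processing notes, along with edgeR 3.28.1, bcl2fastq 2.18.0.12 and build GRCm38 (mm10). The sources used here give no settings, annotation or use of strand.

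Columns were matched to libraries by title. Counts were scaled by TMM (edgeR 4.0.16, R 4.3.3; factors 1.056 for freshly isolated, 0.947 for expanded). Log2 folds used a prior count of 2 and folds of single genes are plain CPM ratios. Genes whose mean over both libraries reached 1 CPM were compared. With 1 library per group no p-value was computed. Intervals of folds and shares are exact (Clopper-Pearson, conditional on the sum of counts; odds ratios from scipy 1.17.1). They cover counting error only, since PCR copies were not told apart by molecular identifiers. The calculation was tested on simulated data with counting error alone and planted changes well above 2-fold. That test does not address spread between samples or calls near the 2-fold limit.

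The members, the pathway and marker lists and the motifs were chosen with earlier results of these data known. Named genes are the members, the dimer partners, the MuvB, inhibitor and ligase lists, and of each other list the 2 furthest up and the 2 furthest down that reach a mean of 10 CPM; the values of 2 such genes are not reported here. Exon overlaps come from GENCODE on GRCm38. Alternatives were scaling by total count, DESeq2 1.42.0 size factors, upper quartile or total count leaving out the top 50 genes per library, a prior count of 0.5 or 5, no filter or 5 CPM, and other groupings or length weights for the shares.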

Additional observations from a re-analysis of the deposited data

How the results depend on the processing

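No member changed direction under any of the alternatives run, and 73 of 80 member folds stayed within their counting interval. The other 7 came from other scalings and concerned E2f4, E2f6, Rbl1 and Rbl2. The settings with no filter or a filter at 5 CPM cannot move the fold of a member, and all members passed both. Their results, included in the 73, were therefore fixed in advance. The count of members at least 2-fold higher was 7, and 5 with scaling by total count, 6 by upper quartile or without the most abundant genes (E2f2 at a log2 fold of 0.99 in both), and 7 under each of the others. The log2 fold of E2f1 ranged from 3.44 to 3.63, of E2f7 from 4.29 to 4.58, of E2f8 from 4.72 to 4.91 and of E2f5 from -0.54 to -0.38. The activator to repressor ratio, 1.36-fold higher, was 1.81-fold higher with E2f7 and E2f8 left out of the repressors. With counts divided by gene length it was 1.79-fold higher. Both values lie above the counting interval of the ratio (1.24 to 1.50). It was 1.40-fold without E2f3 and 1.32-fold without E2f6. Groupings without E2f1 or without E2f4 were not run. The alternatives given all keep both genes, so they cannot show whether the ratio holds without either of them. The median of the G1/S and of the G2/M target list stayed throughout between the median lower and the median upper counting limit of its genes. Scaling by total count moved the median log2 fold of the Polycomb list from -0.11 to -0.27, of the corepressors from -0.17 to -0.32 and of the dimer partners with Rb1 from 0.37 to 0.21. No paired analysis was possible because each group has 1 library, and no library could be left out for the same reason. Depth limits mainly E2f7 and E2f8 in freshly isolated cells, at 19 and 52 counts.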

Other observations

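Of 10 genes for corepressors that pocket proteins recruit, 1 was at least 2-fold higher and 3 were lower in the expanded library (median log2 fold -0.17). These counts are near the 22.4% of all tested genes that were higher and the 25.0% that were lower. The lower genes included Smarca2, a chromatin remodelling ATPase, at 192 and 78.2 CPM, and Arid4b at 178 and 77.2 CPM, and the third was Arid4a at 164 and 72.4 CPM, named after its values were seen. Smarca4, the other ATPase of that remodeller, stood at 170 and 277 CPM, and the histone methyltransferase gene Suv39h1 on the 2-fold line at 42.0 and 84.1 CPM.

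Of 6 tested apoptosis genes linked to E2f1, 2 were higher and 1 was lower, again near those shares. Their median log2 fold was 0.03, -0.12 with scaling by total count and 0.57 with no filter, which adds the low gene Trp73. Apaf1, the apoptosome scaffold, stood at 72.7 and 152 CPM. Bcl2l11, which encodes the death promoter BIM, stood at 166 and 63.5 CPM.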
